A study of Danio rerio with 4 samples.

Results

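Wnt ligands are secreted, lipid-modified glycoproteins, and Frizzled (Fzd) proteins are the transmembrane receptors that bind them. In the canonical branch a Frizzled receptor acts with the co-receptor Lrp5 or Lrp6 and β-catenin is stabilised, while Ror and Ryk receptors serve branches that steer cell polarity, cell movement and axon growth. In the zebrafish embryo Wnt signals are known for patterning the body axis and the brain, for tail and fin growth and for the convergence and extension movements of gastrulation.

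The genes described here are those whose symbol starts with *wnt* or *fzd* followed by a digit, together with *lrp5*, *lrp6*, *ror1*, *ror2* and *ryk*, provided that a read fell on them in any library. The table of the series held 41 such rows, 25 ligands and 16 receptors, and 31 of them had a read, which is 15 ligands and 16 receptors, while 60.4% of all rows had a read. These are 31 of 18955 genes with a read and of 31388 genes in the table. The series holds 2 poly(A) libraries of MZ*tulp3* embryos and 2 of control embryos, each from total RNA of the whole embryo at 2 dpf. MZ*tulp3* embryos lack *tulp3*, which encodes a ciliary trafficking adapter, both maternally and zygotically (the line listed by the study is homozygous for the *uf3* allele and carries *li1Tg* on an AB/TL background), and those taken for RNA showed a severe ventral body curvature. The control embryos are labelled WT, and the number of embryos per library is not given in the sources used here. The groups therefore differ in genotype and in this choice by shape, which cannot be told apart. Whether the control embryos carry *li1Tg*, and from which parents they came, is not given in the sources used here. Differences of that kind could not be told apart either.

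Reads of *tulp3* itself were 0 in both MZ*tulp3* replicates, and 0 and 36 in control replicates 1 and 2, so the gene checks the labels in 1 control library alone. Between 22589725 and 29735214 reads fell on genes per library, of which the 13 mitochondrial genes took 41.0% to 71.1%, and 8607137 to 14520032 reads remained outside them. Values are normalized counts, that is reads divided by 1 size factor per library, and are not corrected for gene length. No read in a library sets an upper limit of 3 reads, which is 1.98 to 3.54 normalized counts depending on the library and covers counting error only. Of 39 marker genes fixed for 10 tissues, from neurons to lens, 36 were in the table and 1, *cryaa*, had no read in any library. In whole embryos fewer cells of a type and less RNA per cell cannot be told apart.

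Receptor genes were read far more widely than ligand genes. A read in each of the 4 libraries was found for 11 of 16 receptors (*fzd2*, *fzd3a*, *fzd7a*, *fzd7b*, *fzd8a*, *fzd9b*, *fzd10*, *lrp5*, *lrp6*, *ror1* and *ryk*) and for 3 of 15 ligands (*wnt4b*, *wnt7aa* and *wnt11*). This is 68.75% of the receptors and 20% of the ligands, while 55% of all genes with a read were read in every library. With at least 10 reads asked for, 10 receptors and the same 3 ligands remained in every library, the receptor that dropped out being *ror1* with 3 reads in MZ*tulp3* replicate 1.

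Of the 15 ligands, MZ*tulp3* replicates 1 and 2 held a read of 11 and 6, and control replicates 1 and 2 of 7 and 10. Of the 16 receptors they held 12 and 13 in MZ*tulp3* and 13 and 15 in control. For the ligands the replicates of a group were thus further apart than the groups. Thinning each library to the smallest total of reads outside mitochondrial genes left an expected 3.00 ligands and 10.99 receptors read in every library. This number could hardly move, as all of these genes but *ror1* had at least 10 reads in each library.

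**Figure D1:**
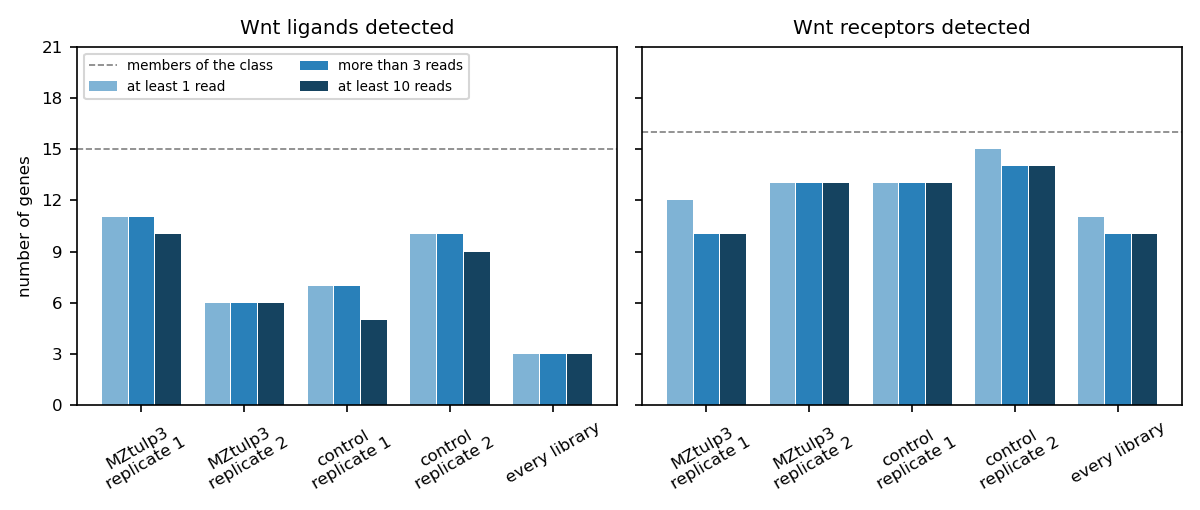
Number of Wnt ligand genes (left panel) and Wnt receptor genes (right panel) read in each library and in every library, at 3 thresholds of reads. The dashed lines mark the 15 ligands and 16 receptors, and the ligand bars for every library stand at 3 at each threshold.

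The classes also differed in how many reads they drew. The median over ligands of the mean normalized count was 20.4, with a range of 1.72 to 253, and over receptors it was 109, with a range of 0.330 to 470. A mean of at least 100 was reached by 3 ligands and 8 receptors. These values are counts per gene and not levels per length, so they describe the reads behind each gene and not how much RNA of each was present.

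Summed over the class, receptors had 1327 and 2567 normalized counts in MZ*tulp3* replicates 1 and 2, against 1898 and 2875 in control replicates 1 and 2. Summed ligands had 765 and 391.9 normalized counts in MZ*tulp3*, against 866 and 971 in control. Both MZ*tulp3* libraries were below both control libraries in the ligand sum, and the libraries overlapped in the receptor sum. Without *wnt7aa*, left out after the values were seen, the ligand sums were 674 and 339 in MZ*tulp3* and 469 and 499.8 in control, and overlapped. The ratio of the receptor sum to the ligand sum was 1.74 and 6.55 in MZ*tulp3* and 2.19 and 2.96 in control, so the MZ*tulp3* replicates lay on either side of the control replicates. On the log2 scale the ratio was 1.75 ± 1.36 in MZ*tulp3* and 1.35 ± 0.31 in control (SD, n = 2 each), a difference of 0.40 that was smaller than the spread between the MZ*tulp3* replicates. Leaving out MZ*tulp3* replicate 1 made it 1.36, and leaving out MZ*tulp3* replicate 2 made it -0.55.

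The ligand that led the sum was not the same in the groups. In MZ*tulp3* replicate 1 *wnt4b* led with 23.5% of the ligand sum and in MZ*tulp3* replicate 2 *wnt11* led with 36.4%, whereas *wnt7aa* held 45.9% and 48.5% in control replicates 1 and 2. Without *wnt7aa* the ratio of receptor to ligand sums was 1.97 and 7.58 in MZ*tulp3* and 4.05 and 5.75 in control, and the log2 difference was -0.32, on the other side of 0. Among receptors *fzd3a* led in MZ*tulp3* replicate 1 (22.9%) and in both control libraries (24.9% and 32.7%), and *fzd7a* in MZ*tulp3* replicate 2 (29.1%).

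**Figure D2:**
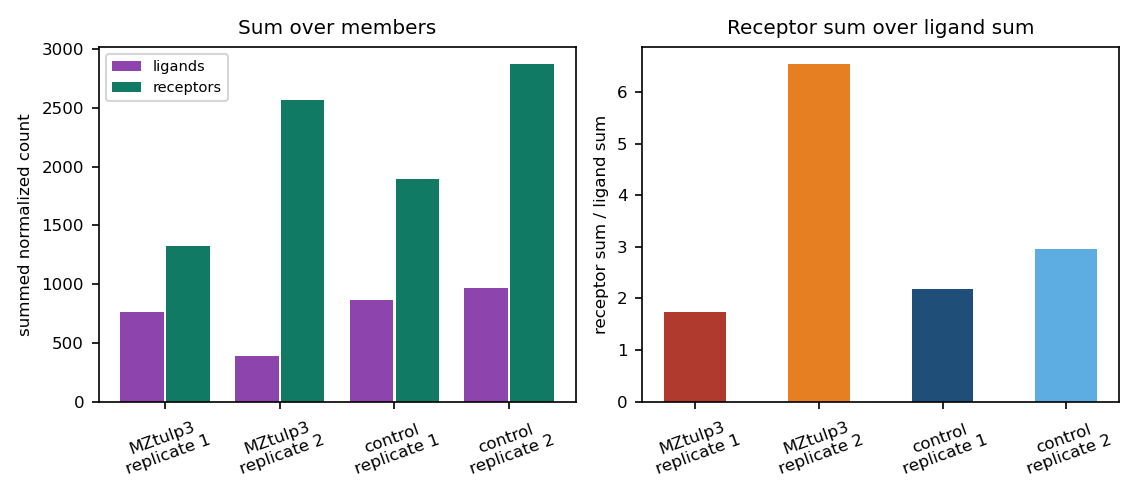
Summed normalized counts of ligands and receptors per library (left panel) and the receptor sum divided by the ligand sum (right panel), 1 bar per library or class. The ratio spans 1.74 to 6.55 in MZtulp3 libraries and 2.19 to 2.96 in control libraries.

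MZ*tulp3* was compared with control gene by gene on log2 of the normalized count plus 2, over the 14674 genes that reached 10 normalized counts in at least 2 libraries. Of the 31 genes 20 passed this filter, 7 ligands and 13 receptors, and the others are given by their reads. By limma's moderated test 0 of the 20 were past an adjusted p of 0.05, as were 0% of all genes, and edgeR called 0 of them, also 0% of all genes. Of all 31 genes, DESeq2 gave an adjusted p to 19 and called 0 of them, with 2.6% of all genes given one called. These 19 included *wnt8b*, below the filter, but not *wnt8-2* or *fzd5*. An unadjusted p under 0.05 was reached by 3 genes in limma, *wnt7aa*, *wnt8-2* and *fzd3a*, and by the same 3 in edgeR. DESeq2 gave 5 of all 31 genes, with *wnt8b* and *wnt2bb*, both below the filter, in addition. Its share over all genes is not given here. Over all genes 12.8% reached it in limma and 9.72% in edgeR, so 3 of 20 lies near the background. All 3 were lower in MZ*tulp3*, and 7.94% of all genes were lower with such a p. The replicates are labelled biological, and permuting 4 libraries in groups of 2 gives a two-sided p of 0.333 at best.

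The median log2 fold change of the tested ligands was -0.31 (2 higher and 5 lower in MZ*tulp3*), and it was also -0.31 with *wnt8-2*, at 0 in MZ*tulp3*, set to its bound. Over all 15 ligands, those with few reads included, it turned to 1.32 in DESeq2 and to 1.03 in limma without a filter. That of the tested receptors was -0.0081 (6 higher and 7 lower), beside -0.09 over all 14674 genes. Without MZ*tulp3* replicate 1 the medians were -1.44 for ligands and 0.44 for receptors, and without MZ*tulp3* replicate 2 that of receptors was -0.85. Groups did not overlap for 9 of the 20 genes, 7 lower and 2 higher in MZ*tulp3*. Of all genes tested, 43.3% did not overlap, 23.3% being lower and 20% higher.

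**Figure D3:**
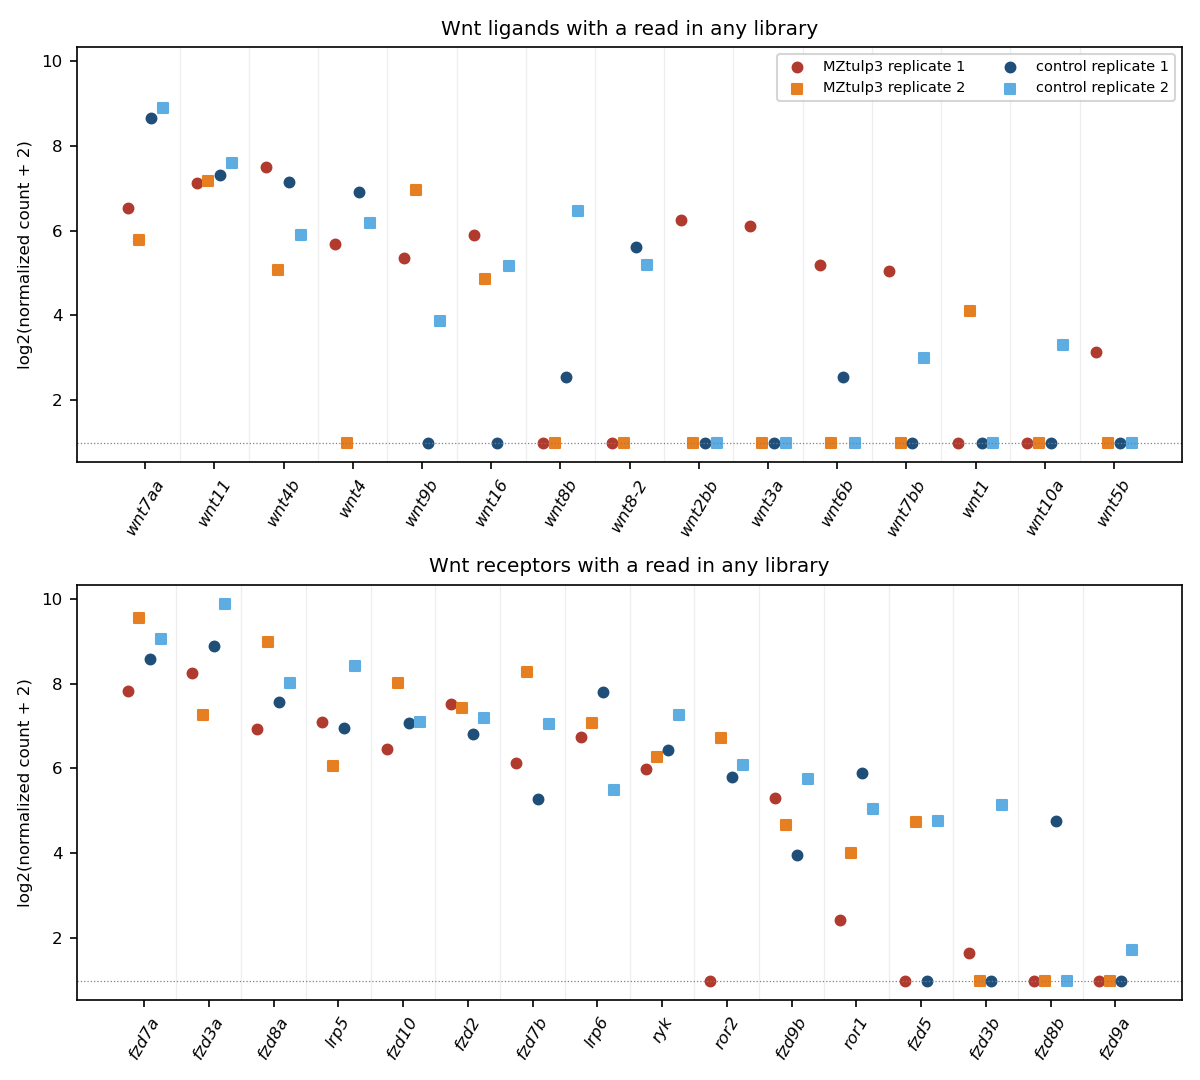
Normalized counts of the 15 ligands (upper panel) and 16 receptors (lower panel) in each library, on the scale log2(normalized count + 2), ordered by mean. Each point is 1 library and the dotted line marks 0 reads, where most points of the ligands right of wnt16 lie.

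Among the ligands, *wnt7aa* (ENSDARG00000044827) had the log2 fold change furthest from 0 relative to its standard error. Wnt7a is known in vertebrates for canonical signalling in the neural tube and to the blood vessels that enter the brain. It had 90.5 and 53.1 normalized counts (79 and 45 reads) in MZ*tulp3* replicates 1 and 2, against 398 and 471 (413 and 713 reads) in control replicates 1 and 2. Both MZ*tulp3* libraries were low and the groups were far apart, at 71.8 ± 26.4 in MZ*tulp3* and 434 ± 51.7 in control (SD, n = 2 each). The log2 fold change was -2.61 (standard error [SE] 0.66, adjusted p = 0.379 by limma). The adjusted p was 0.0519 by DESeq2, the lowest of the other tests, scalings and filters, and 0.483 by edgeR, the highest. The fold change was -2.23 to -2.98 with each library left out in turn.

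The row *wnt8-2* (ENSDARG00000078507) is named in the table as the second reading frame of Wnt-8a, a ligand known for posterior and ventrolateral patterning in the early zebrafish embryo. It had 0 reads in both MZ*tulp3* replicates, against 49 and 52 reads in control replicates 1 and 2, or 47.2 and 34.3 normalized counts. The groups did not overlap, and *wnt8-2* was at least 11.7-fold lower in MZ*tulp3* with a floor of 3 reads per library, a bound of 9.84-fold from control replicate 2 alone and 13.5-fold from control replicate 1 alone. At least 10 reads in both control libraries and none in MZ*tulp3* was found for 2.74% of all genes with a read. The bound covers counting error only. Of genes with 20 reads in any library, 29.8% had 20 reads or more in 1 library and none in its replicate. The adjusted p was 0.379 by limma and lay between 0.328 and 0.614 in other tests, scalings and filters, while DESeq2 gave none.

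The row of *wnt8a* (ENSDARG00000052910) had 0 reads in all 4 libraries. In the RefSeq annotation of GRCz12tu, another build than that of the counts, *wnt8a* and *wnt8-2* cover the same span, so reads of the pair cannot be assigned with certainty to either row.

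Of the ligands read in every library, *wnt11* was the most even. Wnt11 proteins act in cell movement, and this gene is also known as *wnt11r*, active in muscle precursors and heart. It had 136 and 143 normalized counts in MZ*tulp3* replicates 1 and 2, against 156 and 192 in control. MZ*tulp3* libraries were below control libraries by little (log2 fold change -0.31, SE 0.68, adjusted p = 0.902 by limma). For *wnt4b*, expressed in the zebrafish floor plate, there were 180 and 31.9 normalized counts in MZ*tulp3* replicates 1 and 2, against 140 and 57.4 in control. Here replicate 1 was the high library of each group, the groups overlapped, and the log2 fold change was -0.23 (SE 1.23, adjusted p = 0.970 by limma), with the direction turned to 0.11 in edgeR and 0.10 in DESeq2.

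Its relative *wnt4* showed a different distribution. It had 49.2 and 0 normalized counts in MZ*tulp3* replicates 1 and 2, against 118 and 70.0 in control. Both MZ*tulp3* values were below both control values, but the log2 fold change of -3.20 (SE 1.99, adjusted p = 0.549 by limma) was -0.86 with MZ*tulp3* replicate 2 left out and -5.54 with MZ*tulp3* replicate 1 left out. So the size of this difference rested on the library with 0 reads.

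The ligand with the highest log2 fold change was *wnt9b*, which in the mouse induces kidney tubules and acts in the face. It had 38.9 and 122 normalized counts (34 and 103 reads) in MZ*tulp3* replicates 1 and 2, against 0 and 12.5 (0 and 19 reads) in control. Both MZ*tulp3* libraries exceeded both control libraries, and the log2 fold change was 3.72 (SE 1.84, adjusted p = 0.455 by limma). It was 2.29 when control replicate 1 was left out. The other ligand with a positive value was *wnt16*, needed in zebrafish for the specification of blood stem cells, at 57.3 and 27.1 normalized counts in MZ*tulp3* and 0 and 33.7 in control. The groups overlapped, and the log2 fold change of 2.30 (SE 1.98, adjusted p = 0.668 by limma) was 0.22 without control replicate 1, the library at 0.

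**Figure D4:**
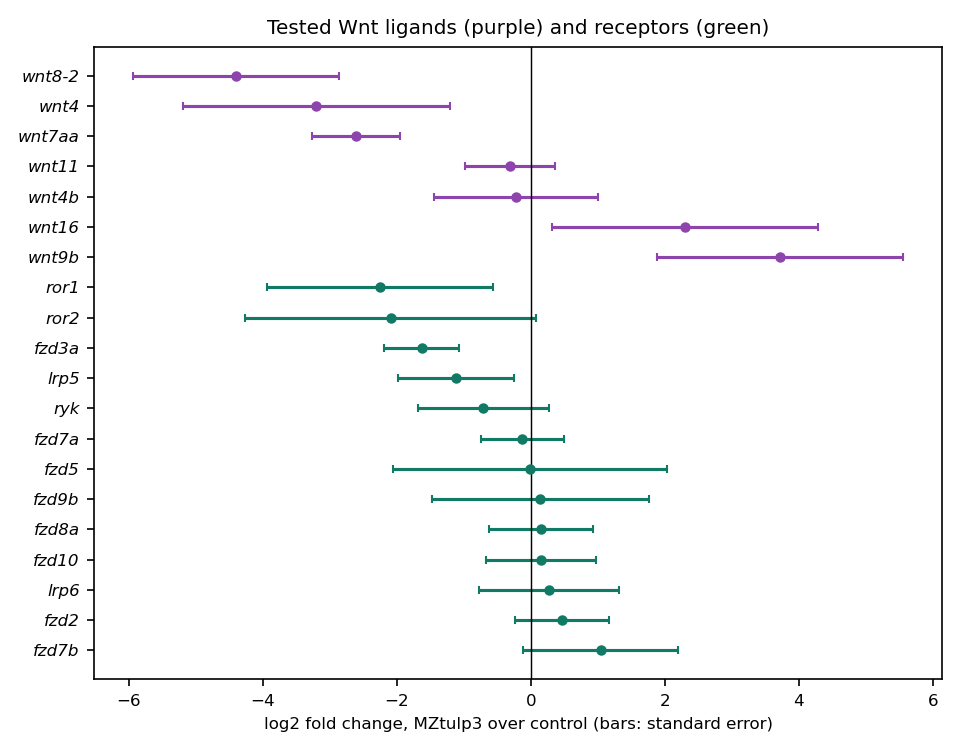
Log2 fold change of MZtulp3 over control for the 7 tested ligands and 13 tested receptors, with bars for the standard error from limma. Values run from -4.40 (wnt8-2, a fitted value against libraries at 0 and no bound) to 3.72 (wnt9b) in ligands and from -2.24 (ror1) to 1.04 (fzd7b) in receptors.

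The 8 ligands below the filter came mostly from single libraries. In MZ*tulp3* replicate 1 *wnt2bb*, which promotes liver specification in zebrafish, had 65 reads, and *wnt3a*, a canonical ligand of the tail bud and dorsal neural tube, had 58. All other libraries had 0 reads of both. The same library had 30 reads of *wnt6b*, 27 of *wnt7bb* and 6 of *wnt5b*, the *pipetail* gene of gastrulation movements. MZ*tulp3* replicate 2 had 0 reads of these 5 genes, and in control there were 4 reads of *wnt6b* in replicate 1 and 9 of *wnt7bb* in replicate 2.

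MZ*tulp3* replicate 2 alone held *wnt1*, a ligand of the midbrain-hindbrain boundary, with 13 reads. Control replicate 2 alone held *wnt10a*, with 12 reads. The forebrain ligand *wnt8b* had 0 reads in both MZ*tulp3* replicates, against 4 and 130 reads in control replicates 1 and 2. It was at least 12.9-fold lower in MZ*tulp3* with a floor of 3 reads per library, but at least 1.104-fold without control replicate 2. The value of *wnt8b* therefore rested on 1 control library.

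A further 10 ligands had no read in any library, namely *wnt2*, *wnt2ba*, *wnt3*, *wnt5a*, *wnt6a*, *wnt7ba*, *wnt8a*, *wnt9a*, *wnt10b* and *wnt11f2*, the *silberblick* gene. No library held reads of both genes of a neighbouring pair of ligands. Only *wnt6b* and *wnt10a* could have shown such a library, as each other pair had a gene without a read in any library. In GRCz12tu *wnt6b* and *wnt10a* are next to each other, as are *wnt3a* and *wnt9a* and the overlapping *wnt1* and *wnt10b*. The first gene of each of these pairs had reads in 1 or 2 libraries, while *wnt10a* was read in another library and *wnt9a* and *wnt10b* in none.

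Among the receptors, *fzd3a* (ENSDARG00000021664) was the gene with an unadjusted p under 0.05. Fzd3 belongs to the planar cell polarity branch and guides axons and migrating neurons. It had 303 and 151 normalized counts (265 and 128 reads) in MZ*tulp3* replicates 1 and 2, against 473 and 939 (491 and 1422 reads) in control. Both MZ*tulp3* libraries were below both control libraries, at 227 ± 108 in MZ*tulp3* and 706 ± 330 in control (SD, n = 2 each), although control replicate 1 lay closer to MZ*tulp3* replicate 1 than to control replicate 2. The log2 fold change was -1.63 (SE 0.56, adjusted p = 0.379 by limma, with 0.149 and 0.519 as the extremes among other tests, scalings and filters), and it was -1.13 without MZ*tulp3* replicate 2 or without control replicate 2.

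Neuron markers were also lower in each MZ*tulp3* library than in either control library. The 4 neuron markers, all read in every library, summed to 7586 and 5680 normalized counts in MZ*tulp3* and 8283 and 13413 in control, while the 5 neural progenitor markers summed to 15121 and 11824 in MZ*tulp3* and 11209 and 11059.5 in control. The 5 epidermis markers were higher, at 214564 and 316552 in MZ*tulp3*, against 124930 and 90266 in control, as were the 4 markers of liver and yolk layer, at 5660 and 10856 in MZ*tulp3*, against 2362 and 2599 in control. These are the lists whose groups did not overlap, out of 10 marker lists. The lists of skeletal muscle, heart, blood, pronephros, fin fold and lens overlapped between the groups. Among single genes tested, 43.3% did not overlap. The part of the markers in the values of *wnt7aa* and *fzd3a* was not tested.

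The receptor with the highest mean normalized count was *fzd7a*, of the Fzd7 receptors that act in gastrulation. It had 226 and 746 normalized counts in MZ*tulp3* replicates 1 and 2, against 380 and 528 in control. MZ*tulp3* replicates lay on either side of the control libraries, and the log2 fold change was -0.13 (SE 0.62, adjusted p = 0.965 by limma), with the direction turned to 0.078 in edgeR and 0.096 in DESeq2. For *fzd8a*, a receptor of the forebrain, there were 119 and 498 normalized counts in MZ*tulp3*, against 189 and 256 in control, with the same arrangement of libraries (log2 fold change 0.15, SE 0.77, adjusted p = 0.966 by limma). The counts of *fzd10* were 85.9 and 257 in MZ*tulp3*, against 132 and 135 in control (log2 fold change 0.15, SE 0.82, adjusted p = 0.969 by limma).

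These 3 genes were all lowest in MZ*tulp3* replicate 1 and highest in MZ*tulp3* replicate 2, so the group mean hides a spread of 3.00- to 4.18-fold between its replicates. In *fzd2*, by contrast, the MZ*tulp3* replicates were close, at 182 and 169 normalized counts, against 111 and 145 in control. Both were above both control libraries by less than the error of the fit (log2 fold change 0.46, SE 0.70, adjusted p = 0.832 by limma).

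The co-receptor *lrp5* had 134 and 64.9 normalized counts in MZ*tulp3* replicates 1 and 2, against 122 and 341 in control. The groups overlapped, and the log2 fold change of -1.11 (SE 0.86, adjusted p = 0.629 by limma) was -0.38 without control replicate 2. Its partner *lrp6* had 105 and 133 normalized counts in MZ*tulp3*, against 220.5 and 42.9 in control, so that control replicate 2 was the highest library for *lrp5* and the lowest for *lrp6*. The log2 fold change of *lrp6* was 0.27 by limma and turned to -0.15 in edgeR and -0.14 in DESeq2. The receptor tyrosine kinase *ror2* had 0 and 103 normalized counts in MZ*tulp3* replicates 1 and 2, against 53.9 and 66.0 in control. Its log2 fold change of -2.09 (SE 2.17, adjusted p = 0.734 by limma) turned to 0.76 without MZ*tulp3* replicate 1.

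For *ror1* the counts were 3.44 and 14.2 in MZ*tulp3*, against 57.8 and 31.0 in control. Both MZ*tulp3* libraries were below both control libraries, on few reads (log2 fold change -2.24, SE 1.69, adjusted p = 0.618 by limma). In *ryk*, a receptor with an inactive kinase domain, both MZ*tulp3* libraries were also below both control libraries. It had 61.8 and 75.5 normalized counts in MZ*tulp3*, against 84.7 and 151 in control. This difference was smaller than the error of the fit (log2 fold change -0.71, SE 0.98, adjusted p = 0.813 by limma). The remaining tested receptors, *fzd5*, *fzd7b* and *fzd9b*, overlapped between the groups, with log2 fold changes of -0.0081 to 1.04, that of *fzd9b* being 0.14 by limma and turning to -0.11 in edgeR and -0.098 in DESeq2.

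**Figure D5:**
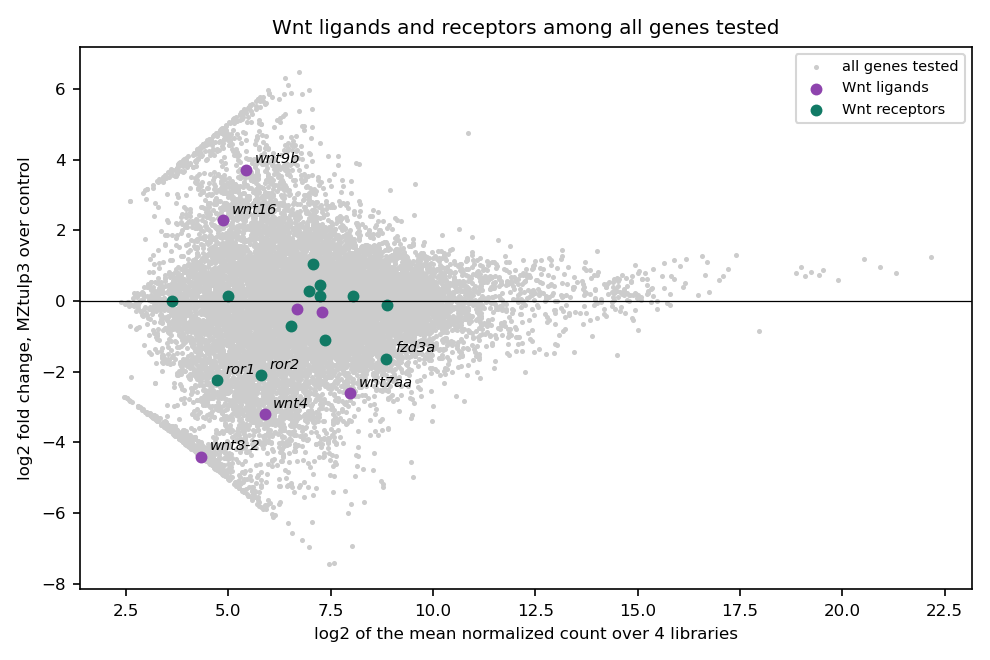
Log2 fold change of MZtulp3 over control against log2 of the mean normalized count for all 14674 genes tested (grey), with the 7 ligands and 13 receptors coloured. Genes past 1.5 in either direction are named, and all lie within the cloud of other genes.

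Frizzled paralogs were read unequally. Reads of *fzd3a* exceeded those of *fzd3b*, at 265 and 128 against 1 and 0 in MZ*tulp3* replicates 1 and 2, and at 491 and 1422 against 0 and 50 in control. The ratio of *fzd7a* to *fzd7b* was 3.34 and 2.43 in MZ*tulp3* and 10.4 and 4.08 in control. The *b* paralog *fzd8b* had 26 reads in control replicate 1 and 0 in the others, whereas *fzd8a* had 104 to 422 reads. In the pair of *fzd9* genes the order was the other way round, with 14 to 79 reads of *fzd9b* and 2 of *fzd9a*, both in control replicate 2. The eye-field receptor *fzd5* had 0 and 21 reads in MZ*tulp3* and 0 and 38 in control. Paralogs share sequence, and how the counting divided reads between such copies was not tested.

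Reads in 1 replicate and none in the other were frequent. At least 20 reads in 1 library and 0 in the other library of its group were found for 6 of the 12 ligands that reached 20 reads in any library, *wnt2bb*, *wnt3a*, *wnt4*, *wnt6b*, *wnt7bb* and *wnt16*. Of the receptors it was 4 of 15, *ror2*, *fzd3b*, *fzd5* and *fzd8b*. Together this is 37.0% of 27 genes, beside 29.8% of the 17079 genes with 20 reads in any library. In 5 of these 6 ligands, *wnt2bb*, *wnt3a*, *wnt4*, *wnt6b* and *wnt7bb*, the pair was that of MZ*tulp3* and the reads were in its replicate 1. For *wnt16* they were in control replicate 2. MZ*tulp3* replicate 2 was the library with the fewest genes read, 13277 against 14649 in MZ*tulp3* replicate 1, and the fewest reads outside mitochondrial genes. The share of all genes with reads in MZ*tulp3* replicate 1 and none in replicate 2 is not given here.

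Proteins that act beside ligands and receptors were taken from lists of the pathway. Of 9 genes of Wnt secretion 7 were tested, with 1 higher and 6 lower in MZ*tulp3*, a median log2 fold change of -0.39 and 0 at an unadjusted p under 0.05, which 12.8% of all genes reached. The carrier *wls*, which brings Wnt proteins to the cell surface, had 134 and 170.0 normalized counts in MZ*tulp3*, against 215 and 262 in control, without overlap (log2 fold change -0.65, SE 0.61, adjusted p = 0.701 by limma). It was chosen after its values were seen. Of 25 secreted antagonists 12 were tested, with 5 higher and 7 lower, a median of -0.76, which turned to 0.70 without MZ*tulp3* replicate 2 and to 0.42 in edgeR and DESeq2, and 0 at such a p. Over the 7 lists of the pathway 85 genes were tested, and 0 were past an adjusted p of 0.05 by limma or edgeR. Of these 85 genes 15 were at an unadjusted p under 0.05 by limma, beside 12.8% of all genes. DESeq2 called 1, *nkd1*, beside 2.6% of all genes.

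Of 9 R-spondin and receptor turnover genes 5 were tested, with 2 higher and 3 lower and a median of -2.34. This median rested on single libraries, being 0.49 with MZ*tulp3* replicate 1 left out and 0.51 if replicate 2 was left out instead. The receptor gene *lgr4* had 196 and 2 reads in MZ*tulp3* and 201 and 192 in control, and the ligase gene *znrf3* had 1 and 190 reads in MZ*tulp3* and 138 and 235 in control. Summed over the 5 genes there were 372 and 445 normalized counts in MZ*tulp3*, against 399.5 and 449.6 in control, which overlapped. The canonical enhancer *rspo1* had 0 reads in both MZ*tulp3* replicates, against 19 and 47 reads in control, and was the list's gene at an unadjusted p under 0.05. Of 18 glypicans and other co-receptors 9 were tested, with 5 higher and 4 lower, a median of 0.37 and 3 at such a p, which 12.8% of all genes reached. These were *mcama*, at 179 and 102 normalized counts in MZ*tulp3* and 439 and 767 in control, *gpc5b*, with 0 reads in both MZ*tulp3* replicates and 58 and 19 in control, and *gpc1b*, with 40 and 10 reads in MZ*tulp3* and 0 in both control replicates. The first and second were lower and the third higher in MZ*tulp3*, with adjusted p of 0.379, 0.387 and 0.390 by limma.

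Of 22 Dishevelled and planar cell polarity genes 17 were tested, with 9 higher and 8 lower and a median of 0.93, which turned to -0.26 without control replicate 2 and was 0.07 in edgeR and DESeq2. The polarity scaffold *scrib* had 600 and 690.5 normalized counts in MZ*tulp3*, against 251 and 98.4 in control, and *dvl1b* had 0 reads in MZ*tulp3*, against 44 and 39 in control. Both had an unadjusted p under 0.05 and an adjusted p of 0.379 by limma. Of 26 genes of the destruction complex and β-catenin 19 were tested, with 15 higher and 4 lower. Over all 14674 genes tested 6920 were higher. The median log2 fold change was 0.58, and 0.45 to 0.59 in other tests, scalings, pseudocounts, filters and with a library left out. An unadjusted p under 0.05 was reached by *ctnnb1*, β-catenin itself, and *csnk1a1*, both higher, and by *csnk1e*, lower (adjusted p = 0.379 for each by limma). Of 24 target and nuclear genes 16 were tested, with 11 higher and 5 lower. Their median was 0.66, with extremes of 0.10 without control replicate 1 and 0.72 without control replicate 2. An unadjusted p under 0.05 by limma was found for 6 (12.8% of all genes), *nkd1*, *tcf7l1a*, *tcf7l1b* and *bcl9* higher and *tcf7l2* and *nkd2b* lower.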

How the data were processed

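The authors used Trim Galore, STAR (on GRCz10), RSEM and DESeq2. The deposited signal is a count per gene over a DESeq2 size factor. Within 0.001 of a count, 100% of values in a library are whole numbers times the same constant. This constant gave back the whole-number counts, which are called reads here. They are the counts that followed from RSEM, and any rounding before they were deposited cannot be seen. The deposited fold changes, p-values and regularized logarithms were not used.

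limma 3.58.1 with a variance trend was fitted to log2 of the normalized count plus 2, with Benjamini-Hochberg adjustment over 14674 genes. edgeR 4.0.16 and DESeq2 1.42.0 (R 4.3.3) were run on recovered reads, and other scalings, pseudocounts, filters and left-out libraries were tried. The fits were also run on simulated counts, whose outcome is not given and from which no value here is taken. edgeR had been the test for raw counts. Members, lists and tests were chosen with earlier results of these data known. Detailed values were given for the 5 ligands and 6 receptors with the highest means, *wnt8a*, genes with an unadjusted p under 0.05, and genes with reads in 1 group or 1 replicate alone. Values of *lrp6*, *ror1*, *ryk*, *lgr4*, *znrf3* and *wls* were given outside this rule. None of the 41 rows carried the symbol *fzd1*, *fzd4*, *fzd6* or *wnt7ab*, so these genes are not covered.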

Additional observations from a re-analysis of the deposited data

How the results depend on the processing

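With 2 libraries per group, leaving out 1 library moved many values. None of the ligands and receptors tested was past an adjusted p of 0.05 in limma, in edgeR, in DESeq2 or in limma with another scaling, pseudocount or filter, the replicate block or a library left out. With an unadjusted p under 0.05, a count added after seeing the data, there were 3 of 20 genes. DESeq2 gave 5 of all 31 genes, with *wnt8b* and *wnt2bb*, below the filter, in addition to these 3. Its share over all genes is not given here, and *wnt8b* and *wnt2bb* rested mainly on 1 library each. The 3 genes *wnt7aa*, *wnt8-2* and *fzd3a* had such a p with the replicate block. Its numbers pair no libraries in the labels (correlation of the replicate differences between the groups -0.00286). Without a filter *wnt7aa* and *fzd3a* had such a p in limma and *wnt8-2* did not. With a library left out, 1 group holds 1 library, and not all 3 genes kept such a p. With a library left out, the log2 fold change ranged from -2.98 to -2.23 for *wnt7aa*, from -2.13 to -1.13 for *fzd3a* and from -4.62 to -4.18 for *wnt8-2*. The median log2 fold change of ligands turned to 1.32 by DESeq2 and to 1.03 without a filter, both over all 15 ligands, and ranged from -1.44 to -0.34 with a library left out. That of receptors ranged from -0.85 to 0.44. Ligands read in every library numbered 3 to 5 with a library left out, the 5 being without control replicate 1. The log2 difference of the receptor to ligand ratio ranged from -0.55 to 1.36 with a library left out and was -0.40 without *wnt7aa* and *fzd7a*, the ligand and receptor with the highest means. Among single genes, *wnt4b* turned to 0.11 in edgeR and 0.10 in DESeq2, *fzd7a* to 0.078 and 0.096, *lrp6* to -0.15 and -0.14 and *fzd9b* to -0.11 and -0.098. With a library left out, the log2 fold change ranged from -1.44 to 0.99 for *wnt4b*, from -0.98 to 0.73 for *fzd7a*, from -0.87 to 1.17 for *fzd8a*, from -0.63 to 0.94 for *fzd10*, from -4.95 to 0.76 for *ror2*, from -1.89 to 1.87 for *fzd5*, from -0.034 to 2.12 for *fzd7b*, from -0.88 to 1.42 for *lrp6* and from -0.76 to 1.04 for *fzd9b*. The cause of these changes was not tested. Ratios per length were not run.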
